A study of Mus musculus with 10 samples.

Results

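The 1000 regions described here carried the strongest lactylation of histone H3 lysine 18 (H3K18La) in mouse retina kept in low glucose. They were chosen by the mean H3K18La signal of the 3 libraries at 5 mM glucose, as the 1000 highest of 82692 autosomal peaks of at least 500 bp, out of 108253 peaks in all. By the study's methods these appear to be H3K18La peaks merged over ages of the developing retina, so a site that was a peak of H3K27Ac or of the explants alone may not be in the table, and an H3K27Ac peak below means the H3K27Ac signal at one of these regions. Signal was given as RPKM, the reads in a peak scaled to the length of the peak and to the reads of the library. The retinas came from C57Bl/6J mice at postnatal day 28 and were held as explants for 48 h in medium with 5 mM or 25 mM glucose, with no other agent or genetic change in the labels. The genome-wide position of 2 marks was read by CUT&Tag, in which an antibody guides a transposase to cut and tag the DNA around a modified histone, from 500000 cells per assay. H3K18La was profiled in 3 libraries at 5 mM and 3 at 25 mM, and H3K27Ac, acetylation of H3 lysine 27, in 2 and 2, all of them given as batch 1. The study's methods call the replicates biological, but the labels do not tie them to separate animals or cultures, so p-values measure the spread between these libraries. A retina holds many cell types, so fewer cells that carry a mark and less mark per cell cannot be told apart.

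Lactate made by glycolysis is the source of the lactyl group placed on histone lysines, and the retina, above all its photoreceptors, turns much of its glucose into lactate even when oxygen is present. H3K27Ac is the textbook mark of active enhancers and promoters. Enhancers lie mostly in introns and between genes, whereas the promoters of widely used genes tend to sit in CpG islands, stretches in which the CG dinucleotide has not been depleted.

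The sequences of the highest members differed in kind, and 2 of the 10 highest are shown because a short word recurs in them. They are 300 bases at the peak centre on the plus strand of GRCm38, with a recurring 6-base word of each window in capitals. The top peak, between genes near Gm24826 (chr1:39499580-39499879), held CACTGT 21 times. The peak of rank 5, in an intron of Me1, which encodes cytosolic malic enzyme (chr9:86671902-86672201), held CACTGG 5 times. The window of the rank 4 peak, in an intron of Ntm, held GCTGTG 41 times and is not printed.
Gm24826: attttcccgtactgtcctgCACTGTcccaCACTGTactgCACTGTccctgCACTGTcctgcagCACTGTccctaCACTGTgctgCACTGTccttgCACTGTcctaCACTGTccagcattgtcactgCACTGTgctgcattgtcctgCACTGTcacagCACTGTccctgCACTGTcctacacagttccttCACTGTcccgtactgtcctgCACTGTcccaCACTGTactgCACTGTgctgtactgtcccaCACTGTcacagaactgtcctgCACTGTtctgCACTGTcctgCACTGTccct
Me1: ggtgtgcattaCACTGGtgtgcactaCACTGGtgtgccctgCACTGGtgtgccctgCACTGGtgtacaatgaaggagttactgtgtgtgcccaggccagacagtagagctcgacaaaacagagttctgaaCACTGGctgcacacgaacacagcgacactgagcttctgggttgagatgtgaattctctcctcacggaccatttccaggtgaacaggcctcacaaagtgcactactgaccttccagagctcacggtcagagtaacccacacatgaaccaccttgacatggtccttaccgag

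The other 4 sequences are shown for their CG dinucleotides, here in capitals. The first is the highest promoter member, at Agpat3, a lysophosphatidic acid acyltransferase (chr10:78320324-78320623, 2 CG). Efcab2 (chr1:178405891-178406190, 27 CG) is one of the few members with a CpG-rich promoter. Rd3 (chr1:191981198-191981497, 2 CG), a photoreceptor guanylate cyclase regulator, holds in its intron the peak with the highest H3K27Ac of all eligible peaks at 25 mM. The peak upstream of Gm15387 (chr15:74222441-74222740, 6 CG) carried more H3K18La than H3K27Ac.
Agpat3: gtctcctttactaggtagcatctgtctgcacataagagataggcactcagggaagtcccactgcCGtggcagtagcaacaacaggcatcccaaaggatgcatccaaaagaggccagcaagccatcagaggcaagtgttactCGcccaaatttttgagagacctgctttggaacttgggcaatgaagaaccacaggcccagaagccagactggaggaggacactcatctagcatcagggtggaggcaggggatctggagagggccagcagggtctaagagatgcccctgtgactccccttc
Efcab2: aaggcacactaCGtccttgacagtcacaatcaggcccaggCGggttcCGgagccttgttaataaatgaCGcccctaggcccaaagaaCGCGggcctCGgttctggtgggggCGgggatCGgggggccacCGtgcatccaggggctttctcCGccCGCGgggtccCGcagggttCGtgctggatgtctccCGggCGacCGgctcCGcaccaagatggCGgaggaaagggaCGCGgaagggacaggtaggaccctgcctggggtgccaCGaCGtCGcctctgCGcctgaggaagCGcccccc
Rd3: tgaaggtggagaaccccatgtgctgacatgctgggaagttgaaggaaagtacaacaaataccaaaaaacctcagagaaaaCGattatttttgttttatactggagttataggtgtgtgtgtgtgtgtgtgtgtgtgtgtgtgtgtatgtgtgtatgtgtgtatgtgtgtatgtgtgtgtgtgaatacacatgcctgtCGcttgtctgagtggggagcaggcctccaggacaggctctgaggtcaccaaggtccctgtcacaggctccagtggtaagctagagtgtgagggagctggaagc
Gm15387: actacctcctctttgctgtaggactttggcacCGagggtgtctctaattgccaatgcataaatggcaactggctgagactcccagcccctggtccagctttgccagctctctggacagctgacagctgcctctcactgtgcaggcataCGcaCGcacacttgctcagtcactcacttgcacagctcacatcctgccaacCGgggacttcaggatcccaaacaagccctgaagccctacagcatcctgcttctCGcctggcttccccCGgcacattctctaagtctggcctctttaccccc

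Repeats within a peak were more frequent among the members than among other peaks. In 22 members (2.2%), 10% or more of the overlapping 31-base words were further copies of a word already counted in the same peak. This held for 0.282% of the other 81692 eligible peaks, 1.1% of ranks 1001 to 2000 and 1.0% of the 1000 strongest H3K27Ac peaks at 5 mM. Of the 10 highest members 3 belonged to this group, in introns of Pde4b (a cAMP phosphodiesterase), Ntm (a cell adhesion protein) and Myof (a membrane repair protein), and Rora followed at rank 20. The share of such further copies was 46.3% at Ntm but 8.20% at Me1 and 0.937% at Gm24826, whose copies differ from each other. The share of members with 10% or more of their words elsewhere on the assembled chromosomes or repeated within the peak was 9.2%, close to the 8.66% of other peaks, and 32 members (3.2%) were more than 50% soft-masked, compared with 3.79%. No member shared a 31-base word with the mitochondrial genome. How reads that fit several places were handled is not given in the sources used here, and its part in these signals was not tested. The median over the 22 members was 5.50 RPKM of H3K18La at 5 mM, 15.6 at 25 mM, and 9.04 and 12.3 RPKM of H3K27Ac, against 5.43, 19, 9.03 and 22.9 RPKM over the other 978.

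Members ranged from 35.5 RPKM at rank 1 down to 4.64 RPKM at rank 1000, with a median of 5.43 RPKM, against 0.935 RPKM over all eligible peaks. The decline was steep only at the top. Gm24826 (chr1:39499129-39500332) had H3K18La values of 41.7, 29.8 and 34.9 RPKM at 5 mM and 90.0, 81.1 and 114 at 25 mM, and H3K27Ac values of 42.4 and 68.5 at 5 mM and 98.7 and 90.6 at 25 mM. It was the highest eligible peak in H3K18La at both concentrations and in H3K27Ac at 5 mM, and the second in H3K27Ac at 25 mM. Igf2bp2, an RNA-binding protein gene, held the peak of rank 3 in an intron (chr16:22132750-22133318), at 16.7, 11.5 and 15.5 RPKM of H3K18La at 5 mM and 27.7, 40.2 and 45.0 at 25 mM. The rule's threshold fell on a flat stretch of the ranking. Just inside it were peaks at BC034090, Ldb3 and Cd59a, and just outside Gm12288 at 4.64 RPKM, Gm49722 and Chst3.

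**Figure D1:**
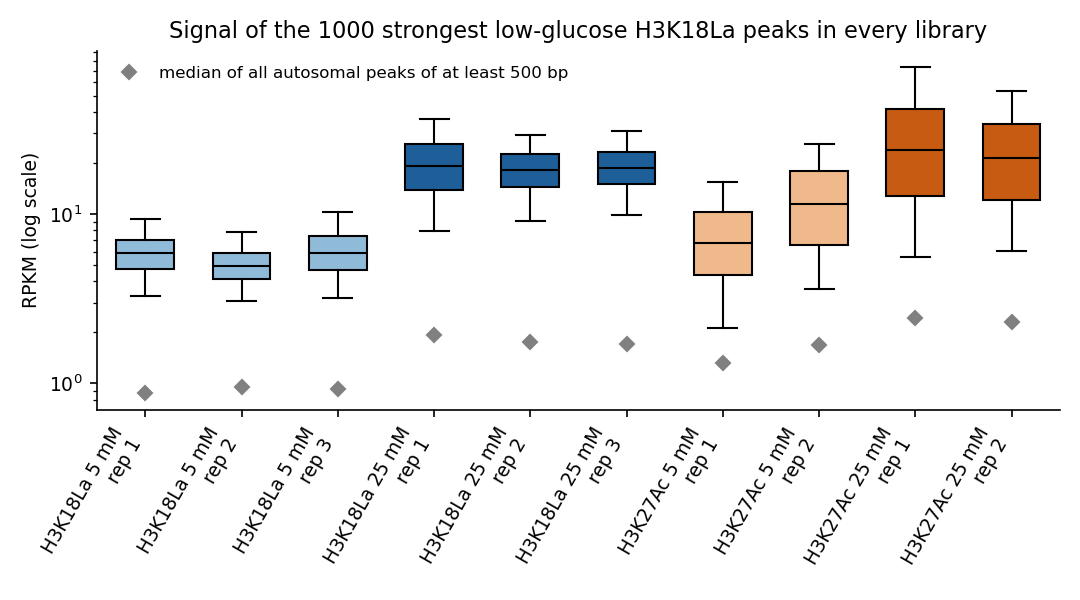
Signal of the 1000 strongest low-glucose H3K18La peaks in each library (vertical axis, RPKM on a log scale). Boxes give the median and quartiles over the peaks, whiskers the 5th and 95th percentiles, and grey diamonds the median of all 82692 eligible peaks; the peaks' medians lie between 4.94 and 5.92 RPKM in the H3K18La libraries at 5 mM and between 18.1 and 19.3 RPKM at 25 mM.

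The read depth behind these values was low at 5 mM. Whether a normalisation factor enters the deposited RPKM is not given in the sources used here, and such a factor would make the totals below, and each percent of all reads, effective rather than sequenced. The RPKM steps gave whole reads for 100% of values, over 1358008 to 5182766 reads per H3K18La library at 5 mM, 1965653 to 4065972 at 25 mM and 4324289 to 7424470 for H3K27Ac. The median member held 12.5, 25 and 8 reads in the 3 choosing libraries, 37.5, 73 and 57 in the H3K18La libraries at 25 mM, 29 and 70 in H3K27Ac at 5 mM, and 167 and 154 at 25 mM. In the shallowest library, replicate 3 at 5 mM, 611 members held under 10 reads and 74 held 3 or fewer. Membership moved accordingly. Choosing 1000 peaks on 2 of the 3 libraries kept 750, 842 or 764 of the members, depending on the library left out. In the library left out, those peaks had a median of 4.75, 4.50 and 4.77 RPKM, which was 86.4%, 77.5% and 87.6% of their median in the libraries that chose them. A lower level in a library that took no part is what choosing on noisy values brings, known as regression to the mean.

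Since the 5 mM libraries chose the members, the change of H3K18La with glucose is given as a description, with no test. The members took 0.667%, 0.574% and 0.676% of all H3K18La reads at 5 mM and 2.37%, 2.13% and 2.23% at 25 mM. The Wilson binomial 95% interval was 0.568% to 0.581% for the lowest of these and 2.35% to 2.39% for the highest, which covers counting error only. At 25 mM, 997 of 1000 members had a higher mean, compared with 84.6% of eligible peaks and 98.6% of ranks 1001 to 2000, and 934 had every library above every 5 mM library, a pattern found in 42.0% of all eligible peaks. The median log2 ratio was 1.65, against 0.80 over the eligible peaks and 1.59 over ranks 1001 to 2000. Read against the library that did not choose them, the median log2 ratios were 1.79, 1.89 and 1.85. Scaled to the reads in peaks, which made up 11.8% to 12% of reads at 5 mM and 31.2% to 35.0% at 25 mM, the median log2 ratio was 0.28.

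The 3 members that were lower at 25 mM lay in an intron of Itpr2, which encodes an endoplasmic reticulum calcium channel, in an intron of the myosin gene Myo1d, and near Gm46560. Gm46560 had 6.90, 4.21 and 4.02 RPKM of H3K18La at 5 mM and 0.925, 2.68 and 3.07 at 25 mM, and was the one member whose 25 mM libraries all lay below its 5 mM libraries. Itpr2 had 5.54, 4.01 and 9.56 RPKM at 5 mM and 5.95, 5.75 and 5.69 at 25 mM, where the groups overlapped. Its H3K27Ac values were 0.601 and 3.76 RPKM at 5 mM and 7.76 and 6.30 at 25 mM, so that the log2 fold change was 1.79 ± 0.43 (SE, limma adjusted p = 0.00111). The value of 0.601 RPKM lay below the median of 1.32 RPKM over eligible peaks in that library. Over 14 settings of the fit the log2 fold change of Itpr2 was 0.77 to 2.77, and it did not pass in all of them.

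The members kept a high place in the other libraries, more so for H3K18La than for H3K27Ac. Of the 1000, 573 were also among the 1000 highest H3K18La peaks at 25 mM, 290 among the 1000 highest H3K27Ac peaks at 5 mM and 221 at 25 mM. Their median rank was 803 in H3K18La at 25 mM, 3570.5 in H3K27Ac at 5 mM and 4651.5 at 25 mM, and 415 and 490 members lay outside the 5000 highest H3K27Ac peaks. Across the 1000 members the level of H3K18La at 5 mM went with that at 25 mM (Spearman's rho 0.44) and hardly with H3K27Ac at 5 mM (rho 0.14), whereas the marks at 25 mM went together more closely (rho 0.58). These are descriptions across peaks that share libraries and were cut from one end of the range, and peaks are not independent replicates.

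The strongest low-glucose H3K18La peaks lay mostly in introns and away from promoters. By the deposited annotation, 533 members (53.3%) were intronic, 210 of them in the first intron of a transcript, compared with 41.2% of eligible peaks. A further 292 (29.2%, compared with 30.2%) were intergenic, 62 exonic, 22 in a 3' UTR, 2 in a 5' UTR and 3 downstream of a gene. Promoters, defined as 1000 bp before to 500 bp after a transcription start, held 86 members (8.6%), compared with 18.9% of eligible peaks and 31.5% of the 1000 strongest H3K27Ac peaks at 5 mM. The median distance to the nearest start was 32505.5 bp, against 21860 bp over eligible peaks and 7895.5 bp for the strongest H3K27Ac peaks. Ranks 1001 to 2000 had 10.1% promoters and 50.8% introns, so the pattern did not end at rank 1000.

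**Figure D2:**
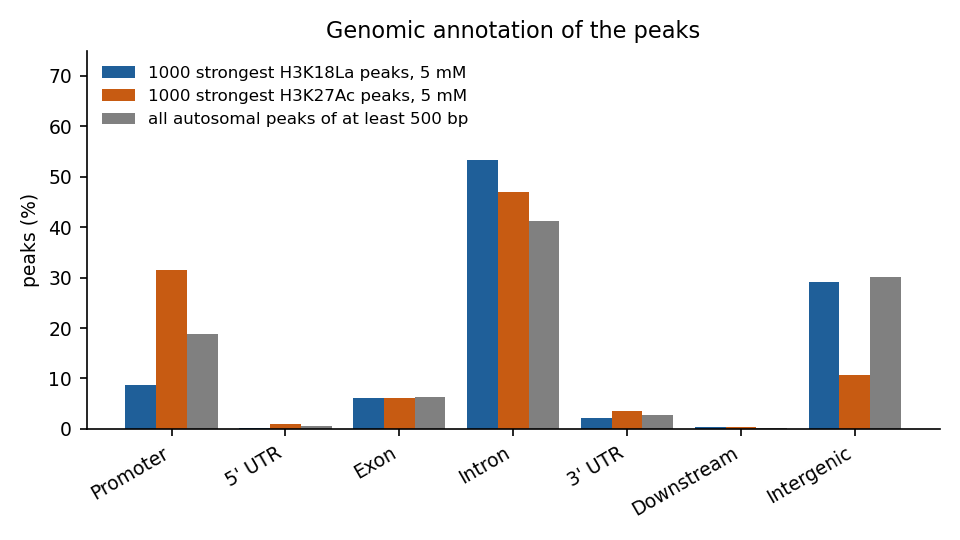
Percent of peaks (vertical axis) in each class of the deposited annotation (horizontal axis) for the 1000 strongest H3K18La peaks at 5 mM, the 1000 strongest H3K27Ac peaks at 5 mM and all eligible peaks. Promoters make up 8.6%, 31.5% and 18.9% of the 3 sets, and introns 53.3%, 46.9% and 41.2%.

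The promoters among them were CpG-poor. The 86 member promoters had a median ratio of observed to expected CpG of 0.212, against 0.612 for the other 15511 promoter peaks, and 5 of them (5.81%) met the usual composition of a CpG island, compared with 51.0%. In the central 300 bases the median number of CG was 5.0 in member promoters and 18 in other promoters. Outside promoters the medians were both 3.0, and the ratio was 0.170 for members and 0.187 for other peaks. The Sp1 box GGGCGG, searched on both strands of the central 300 bases, occurred in 22.1% of member promoters and 46.4% of other promoters. The Agpat3 promoter and the Efcab2 promoter printed above lie toward the ends of this range, with ratios of 0.143 and 0.758 over the whole peak. Their mean H3K18La was 8.62 and 5.56 RPKM at 5 mM, and 29.5 and 9.81 RPKM at 25 mM.

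**Figure D3:**
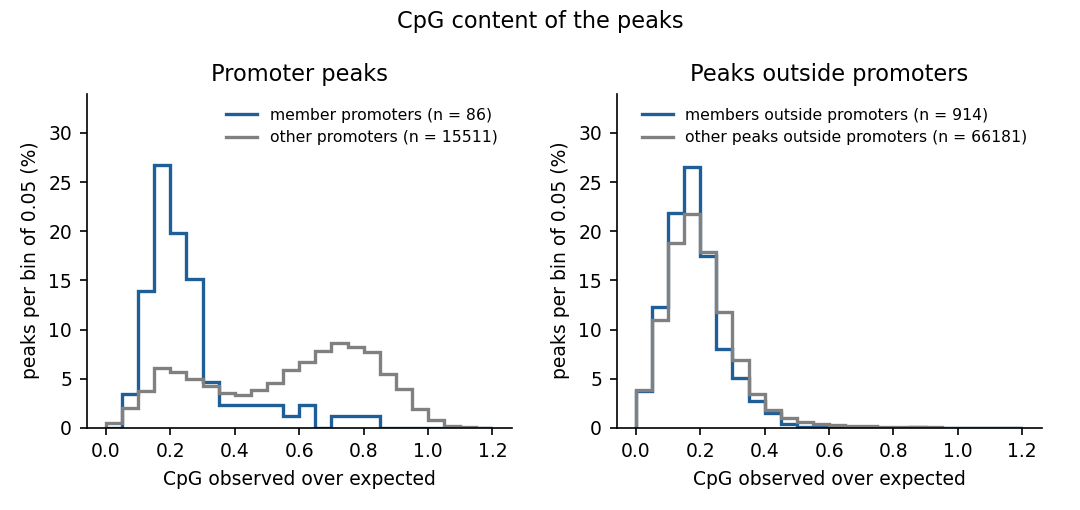
Ratio of observed to expected CpG (horizontal axis) as percent of peaks per bin of 0.05 (vertical axis) for promoter peaks and for peaks outside promoters, with members in blue and other eligible peaks in grey. The 86 member promoters centre near 0.212, whereas the other promoters have a second and larger group at high ratios; outside promoters the curves nearly coincide.

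Sequence words of retinal transcription factors differed little between all members and other peaks, and some differed more within promoters. TAATCC, the core read by the photoreceptor homeobox factors CRX and OTX2, occurred in the central 300 bases of 13.1% of members on either strand, compared with 11.7% of other peaks and 17.6% of the 1000 strongest H3K18La peaks at 25 mM. The MAF-family word TGCTGAC, of which NRL is the rod reader, occurred in 5.9% of members and 6.15% of others. The nuclear receptor half-site AGGTCA was found in 23.8% and 21.1%, the E-boxes CAGATG in 23.3% and 25.0% and CAGCTG in 22.9% and 20.8%, and the AP-1 word TGACTCA in 5.8% and 5.51%. In the 86 member promoters TAATCC occurred in 15.1%, against 6.87% of other promoters, AGGTCA in 29.1%, against 14.8%, and CAGATG in 24.4%, against 15.4%. For TGCTGAC the shares were 4.65% and 4.31%, for CAGCTG 24.4% and 18.7%, and for TGACTCA 5.81% and 3.51%. The median GC content was 52.6% in member promoters and 57.7% in other promoters, and its part in these shares was not tested within promoters. Outside promoters TAATCC was found in 12.9% of members and 12.9% of other peaks, and CAGATG in 23.2% and 27.3%. No test was made of these shares. The words TGCTGAC and TGACTCA can overlap each other, and a match is no evidence of binding.

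The members were assigned to 664 genes, of which 187 had more than 1 member and 18 had 5 or more. Klhl29, a kelch-repeat gene, had 9 members among its 75 eligible peaks, in introns over 199.6 kb. Jazf1, a zinc finger cofactor, had 8 of 53 over 141.9 kb, and Myo5b, a myosin motor gene, 8 of 42 over 125.5 kb, with a best rank of 18. In Klhl29 the H3K18La mean of a peak was 4.68 to 7.15 RPKM at 5 mM and 6.46 to 33.1 RPKM at 25 mM. The intergenic stretch upstream of the pseudogene Gm15387 on chromosome 15, at -150772 to -76078 bp from its start, held 7 of 50, and the gene of melanopsin, Opn4, held 5 of 11 in or around it. A gene is given as the nearest annotated one, and assignment says nothing about which gene a distal peak serves.

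H3K27Ac, which took no part in the choice, was higher at 25 mM in most members. The members took 0.852% and 1.44% of H3K27Ac reads at 5 mM and 3.45% and 2.80% at 25 mM, a ratio of 2.73, with both 25 mM libraries above both 5 mM libraries. With 2 libraries against 2 the exact two-sided permutation test gave p = 0.333, the smallest p it allows. As a share of reads in peaks the values were 4.03% and 4.57% at 5 mM and 4.96% and 4.96% at 25 mM, a ratio of 1.15. In the limma fit over 72442 peaks, 626 of the 1000 members (62.6%) passed an adjusted p of 0.05 as higher at 25 mM, compared with 33.9% of all tested peaks. As lower, 0 members passed, and 0 did so at an unadjusted p under 0.05 or with voom on the recovered reads, where 0.164% of all tested peaks passed in the limma fit. The median log2 fold change was 1.32 over members and 0.84 over all tested peaks, and every 25 mM library lay above every 5 mM library in 938 members, compared with 58.9% of eligible peaks and 91.2% of ranks 1001 to 2000. The median log2 ratio of the H3K27Ac means was 1.28 over members and 1.21 over those next ranks. All 1000 members passed the filter on low values.

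These calls rest on 4 libraries, on the filter on low values, on the scaling and on leaving the replicate number out of the fit. With the replicate number as a block, 53 members (5.3%) and 10.9% of all tested peaks passed as higher. With no filter 0 members and 0 of all 108253 peaks passed in the limma fit, with 657 members and 31013 of all peaks at an unadjusted p under 0.05, and with a mean of at least 2 RPKM 69.6% of members and 52.0% of all tested peaks passed. Peaks took up 21.1% and 31.5% of H3K27Ac reads at low glucose but 69.5% and 56.5% at 25 mM, and the part of this difference in the calls was tested only by rescaling. Leaving out a library left 1 arm with a single library, which was assumed to vary like the other arm. Without replicate 1 at 25 mM, 0 members and 0.0142% of all tested peaks passed in the limma fit. At an unadjusted p under 0.05 it was 67 members and 8340 of all 70435 tested peaks, a smaller share of the members. The median log2 fold change of the members was then 1.24 and 992 of them were positive, while the median SE went from 0.51 to 0.91. Without replicate 2 at 25 mM 6 members and 1.37% of all tested peaks passed. Without replicate 1 or replicate 2 at 5 mM it was 374 and 905 members, and 21.8% and 52.6% of all tested peaks. With libraries scaled to their reads in peaks, 0 members and 0 of all 72442 tested peaks passed in the limma fit, with 160 members higher and 70 lower, and 12491 of all tested peaks in either direction, at an unadjusted p under 0.05. The median log2 fold change was then 0.09 over members and -0.22 over all tested peaks. The median member was at 6.75 and 11.5 RPKM in the 5 mM libraries, a spread between replicates that is wide beside the 23.9 and 21.4 RPKM at 25 mM.

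**Figure D4:**
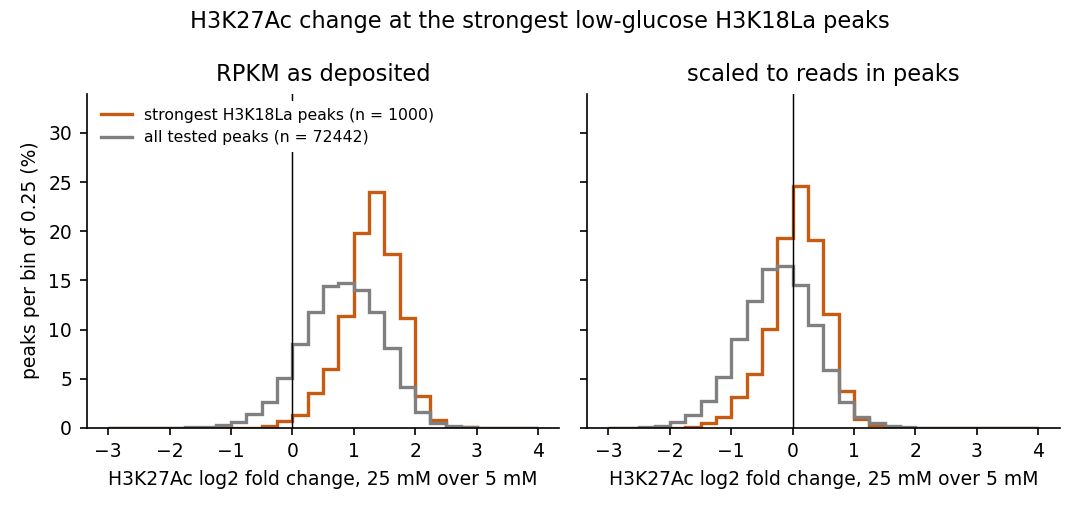
Log2 fold change of H3K27Ac from 5 mM to 25 mM (horizontal axis) as percent of peaks per bin of 0.25 (vertical axis), for the 1000 strongest low-glucose H3K18La peaks in orange and all 72442 tested peaks in grey. With RPKM as deposited the medians are 1.32 and 0.84, and with libraries scaled to reads in peaks they are 0.09 and -0.22, so the members lie to the right of all peaks on either scale while the zero line moves.

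The rise in H3K27Ac passed in 72 of 86 promoter members, 329 of 533 intronic members and 163 of 292 intergenic members (83.7%, 61.7% and 55.8%, against 57%, 28.4% and 25.6% of all tested peaks of the same class). The largest rise was at a peak near Gm49805 (chr17:45966431-45967207), with 2.68 and 6.01 RPKM at 5 mM and 49.6 and 22.0 at 25 mM, so that the log2 fold change was 2.88 ± 0.50 (SE, limma adjusted p = 6.46e-06). Its H3K18La values were 4.88, 3.72 and 8.53 RPKM at 5 mM and 48.5, 27.2 and 29.1 at 25 mM. Next came an intron of Alk, a receptor tyrosine kinase gene (chr17:71946968-71948703), with 6.13 and 8.07 RPKM at 5 mM and 70.3 and 32.4 at 25 mM (log2 fold change 2.68, SE 0.52, limma adjusted p = 7.32e-05). In each of these peaks the lower of the 25 mM libraries was replicate 2, and the groups did not overlap. Introns of Xylt1, which starts proteoglycan chains, of Gm12802 and of Gdpd5, a phosphodiesterase of glycerol lipids, completed the 5 largest rises, each with a log2 fold change of 2.47 (limma adjusted p = 0.000273, 0.000150 and 0.000470). None of these 5 passed in the limma fit without replicate 1 at 25 mM, where the 5 mM libraries alone give the spread, or with reads in peaks as the scale or no filter, where no tested peak did. Without replicate 2 at 25 mM Xylt1, Gm12802 and Gdpd5 did not pass either. Over 14 settings the log2 fold change of Gm49805 was 1.69 to 3.46, that of Alk 1.45 to 3.23, and the lowest of Xylt1, Gm12802 and Gdpd5 were 1.25, 1.26 and 1.22. Gdpd5 passed in fewer of these settings than Xylt1 or Gm12802 did. The lowest member, in an exon of Dpysl2, which encodes a microtubule-binding collapsin response mediator, had 8.84 and 13.5 RPKM at 5 mM and 5.58 and 11.1 at 25 mM (log2 fold change -0.45, SE 0.49, limma adjusted p = 0.468).

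Of the 10 highest members, 2 passed as higher in H3K27Ac at 25 mM, I730028E13Rik (log2 fold change 1.26, limma adjusted p = 0.0484) and Sgip1, an endocytosis gene (1.31, limma adjusted p = 0.0457). Among the 22 members with repeated words 1 passed, and among the other 978 it was 625, with median log2 fold changes of 0.48 and 1.33. The repeat group was set after its values were seen and was not tested. The intronic peak of Ntm, one of the 22, had 10.4 and 15.6 RPKM of H3K27Ac at 5 mM and 22.1 and 19.2 at 25 mM, against 12.9, 14.1 and 13.8 RPKM of H3K18La at 5 mM and 37.0, 33.3 and 42.1 at 25 mM.

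Of 17 gene lists, 7 held a member, and most lists had too few peaks to be read against the 1.21% of all eligible peaks that are members. The cone list held 3 of its 75 eligible peaks (4.0%), all at Thrb, the thyroid hormone receptor that sets the cone type. The bipolar list held 2 of 69 (2.90%), both at Prkca, and the ganglion cell list 1 of 12 (8.33%), at Rbpms. The lists of rod, Müller glia, amacrine, horizontal, microglia, pigment epithelium and vascular markers held 0, among 4 to 45 eligible peaks each. All 8 rod genes had eligible peaks, the highest of them at Pde6b at rank 1755, and the highest phototransduction peak, the Grk1 promoter, came at rank 1047. The 28 genes of glycolysis and lactate handling held 1 of 92 eligible peaks (1.09%), the 15 photoreceptor transcription factors 1 of 167 (0.599%, at Rorb), the 12 immediate early genes 1 of 35 (2.86%, at Egr1) and the 20 acyltransferases and deacylases 0 of 100. The 16 neuronal and synaptic genes held 9 members, 2.12% of their 425 eligible peaks.

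Hexokinase 1, encoded by Hk1, catalyses the first step of glucose use in neurons. Its member lay in an intron (chr10:62299669-62301159) and had 6.04, 4.01 and 4.44 RPKM of H3K18La at 5 mM and 33.4, 22.8 and 17.6 at 25 mM. Its H3K27Ac values were 14.1 and 24.0 RPKM at 5 mM and 95.8 and 56.2 at 25 mM (log2 fold change 1.97, SE 0.56, limma adjusted p = 0.00502). The groups did not overlap for either mark. Prkca, the protein kinase C of rod bipolar cells, had 11.7 and 19.3 RPKM of H3K27Ac at 5 mM and 56.9 and 42.7 at 25 mM in its higher member (log2 fold change 1.68, SE 0.54, limma adjusted p = 0.0123). Snap25, a SNARE protein of synaptic release, had 10.1, 3.77 and 3.92 RPKM of H3K18La at 5 mM in its higher member and 35.2, 36.3 and 38.9 at 25 mM, and Nrxn3, a presynaptic adhesion protein, 6.92, 6.62 and 5.37 at 5 mM and 23.0, 19.6 and 16.7 at 25 mM. Both passed as higher in H3K27Ac (log2 fold changes 1.5 and 1.83, limma adjusted p = 0.0288 and 0.00382). The highest members of Thrb, Rbpms and Dlg2 did not pass, with log2 fold changes of 1.14, 1.11 and 0.98 (limma adjusted p = 0.0752, 0.0573 and 0.0949), and those of Rorb and Egr1 did, with 1.30 and 1.41 (limma adjusted p = 0.0443 and 0.0274).

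Other genes of retinal function had members as well, and those named here were chosen after their values were seen. Rd3 keeps photoreceptor guanylate cyclase inactive on its way to the outer segment, and its intronic member (chr1:191980766-191981930) had 19.1 and 26.1 RPKM of H3K27Ac at 5 mM and 129 and 77.2 at 25 mM (log2 fold change 2.13, SE 0.57, limma adjusted p = 0.00304). Its H3K18La values were 4.48, 6.13 and 5.06 RPKM at 5 mM and 37.6, 22.6 and 17.1 at 25 mM. The other Rd3 member, intergenic (chr1:191944818-191945657), had 4.40 and 8.05 RPKM of H3K27Ac at 5 mM and 13.2 and 14.4 at 25 mM and did not pass (log2 fold change 1.15, limma adjusted p = 0.0523). Promoter members lay at Lrit1, a photoreceptor synapse protein, Ankrd33, a photoreceptor repressor of CRX, Cacna2d4, a calcium channel subunit of the photoreceptor synapse, and Crb2, a polarity protein. Their H3K27Ac log2 fold changes were 2.08, 1.84, 1.78 and 1.94 (limma adjusted p = 0.00335, 0.00815, 0.0105 and 0.00546). The Lrit1 promoter stood at 4.88, 4.51 and 4.82 RPKM of H3K18La at 5 mM and 38.5, 16.1 and 23.0 at 25 mM. Upstream of Rbp3, the retinoid carrier of the space around photoreceptors, a member had 6.57 and 12 RPKM of H3K27Ac at 5 mM and 44.7 and 28.2 at 25 mM. In Ppargc1a, a coactivator of mitochondrial genes, the promoter and an intron held a member each, with log2 fold changes of 1.42 and 1.94 (limma adjusted p = 0.0284 and 0.00408). Of 2 intronic members of Cpt1a, which admits fatty acids to mitochondria, the one of rank 294 passed (1.46, limma adjusted p = 0.0270) and the one of rank 171 did not (1.05, limma adjusted p = 0.117).

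The marks were then compared within 25 mM, in 5 libraries that the choice did not use. Since the members were chosen for high H3K18La, and 573 of them were among the 1000 highest at 25 mM too, a raised share with more H3K18La follows in part from the choice. Of 1000 members, 333 (33.3%) carried more H3K27Ac than H3K18La, compared with 28.1% of 77975 tested peaks, and 132 (13.2%) carried more H3K18La, compared with 4.08%. RPKM of different antibodies are on the library's own scale, so these are differences in share of reads. With libraries scaled to reads in peaks 37 and 488 members passed, where 11.6% and 16.5% of all tested peaks did, and with medians centred 174 and 280, so which mark led in more members depended on the scale. Median centring called 19.4% and 10.1% of all tested peaks. Without replicate 1 of H3K27Ac, which left that mark a single library, the counts were 97 and 59 (9.48% and 0.674% of all tested peaks), and without replicate 2 of H3K27Ac 239 and 53 (15.9% and 0.945%). Without replicate 1, 2 or 3 of H3K18La they were 358 and 159, 177 and 73, and 224 and 82, where all tested peaks gave 32.8% and 6.19%, 22.0% and 1.80%, and 24.8% and 2.45%.

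By position, 54 promoter members carried more H3K27Ac (62.8%, the same as the 62.8% of all tested promoter peaks) and 6 more H3K18La (6.98%, against 0.865%). Among intronic members 198 carried more H3K27Ac (37.1%, against 23.6%) and 60 more H3K18La (11.3%, against 3.34%), and among intergenic members 49 (16.8%, against 8.07%) and 56 (19.2%, against 8.50%). The promoter of Rab30, a Golgi GTPase (chr7:92741183-92742238), had 70.0 and 51.5 RPKM of H3K27Ac and 12, 6.99 and 9.58 of H3K18La at 25 mM, a log2 difference of 2.63 (SE 0.28, limma adjusted p = 0.000784). At the other end, all 7 members upstream of Gm15387 carried more H3K18La, with log2 differences of -2.36 to -0.97. The highest of them by H3K18La at 5 mM (chr15:74221857-74223325) had 23.9, 26.6 and 29.4 RPKM of H3K18La and 9.84 and 8.44 of H3K27Ac at 25 mM (log2 difference -1.49, SE 0.22, limma adjusted p = 0.00154). An intronic peak of Rora, a nuclear receptor needed for cone opsin expression, had 30.2, 29.8 and 36.8 RPKM of H3K18La and 11.5 and 9.53 of H3K27Ac (log2 difference -1.57, limma adjusted p = 0.00122), and it holds repeated words. An intronic peak of Grm4, a glutamate receptor of synaptic terminals, had 35.8, 34.7 and 38.3 RPKM of H3K18La and 17.0 and 17.9 of H3K27Ac (log2 difference -1.03, limma adjusted p = 0.00358). Around Opn4 the marks divided, with log2 differences of -1.22 at the promoter and 1.11 at the distal peak of rank 358 (limma adjusted p = 0.01 and 0.00557). Rab30, Gm15387, Rora, Grm4 and Opn4 were named after their values were seen.

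**Figure D5:**
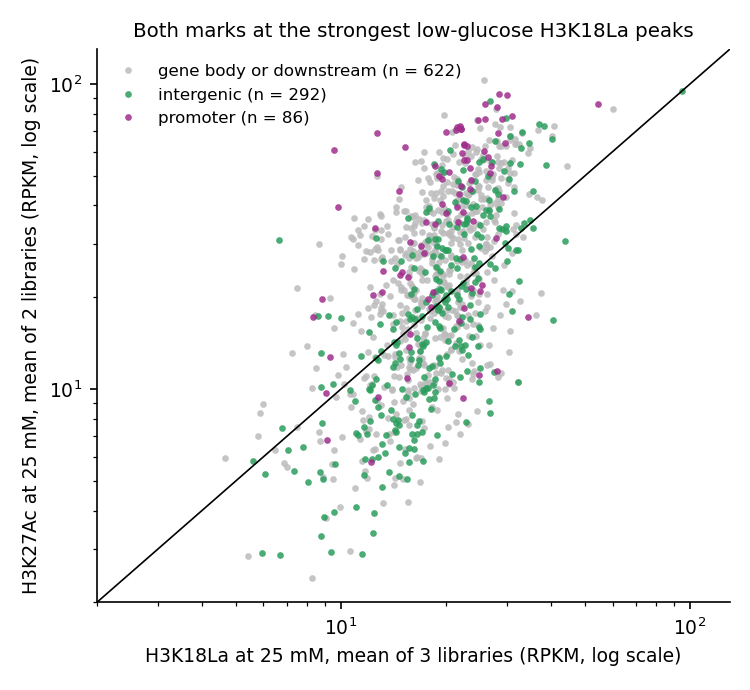
Mean H3K18La of 3 libraries (horizontal axis) against mean H3K27Ac of 2 libraries (vertical axis) at 25 mM, in RPKM on log scales, for the 1000 members, with promoters in purple, intergenic peaks in green, the remaining members in grey and the line of equality in black. Promoter members lie mostly above the line, where 54 of 86 passed (62.8%, as in 62.8% of all tested promoter peaks), and intergenic members on both sides of it.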

How the data were processed

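Peaks and their RPKM came from the deposited table, in which the authors had counted reads of each CUT&Tag library in consensus peaks (MACS, GRCm38), which the methods describe as merged over ages of developing retina, and annotated them with ChIPseeker 1.34.1. The table of the authors' own comparison of glucose levels was not used. RPKM were turned back into whole reads (tolerance 0.01) to give depth and shares. For H3K27Ac between glucose levels (4 libraries) and between marks at 25 mM (5 libraries), limma 3.58.1 in R 4.3.3 was fitted without covariates on log2(RPKM + 0.5), over peaks with a mean of at least 1 RPKM, with Benjamini-Hochberg adjustment over all tested peaks and a threshold of 0.05. Fold changes are on that scale, which understates the change of low peaks. The fit was tested on simulated data. Sequences came from the GRCm38 reference.

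Named regions were the 10 highest members, the 5 largest passing rises and falls in H3K27Ac, up to 3 genes of each gene list and the 3 peaks on each side of rank 1000. Others were named after their values were seen, as the text says for most. Efcab2, Agpat3, Myo1d, Itpr2, Gm46560, Dpysl2, Klhl29, Jazf1 and Myo5b also were. Members, lists and tests were chosen with earlier results of these data known. The alternatives were other pseudocounts, filters, scalings, thresholds and member sets, a replicate block, voom, robust moderation and leaving out each library. Some items are not reported here.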

Additional observations from a re-analysis of the deposited data

How the results depend on the processing

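The share of members higher in H3K27Ac at 25 mM (62.6%) was 0% with no filter on low values, 3.7% with medians centred (1.44% of all tested peaks), 0% with libraries scaled to reads in peaks, 38.9% with centring on the weakest peaks (17.3% of all) and 20.6% at a threshold of 0.01, and ran from 0% to 90.5% when a library was left out. With the remaining alternatives, the replicate block aside, it was 56.3% to 72.8%, against 33.1% to 52.0% of all tested peaks. No member passed as lower under any alternative. At the threshold of 0.01 the share of all tested peaks was not counted, here or for the marks. The share with more H3K27Ac than H3K18La (33.3%) was 18.5% with no filter (16.0% of all peaks), 17.4% with medians centred, 3.7% on reads in peaks, 17.9% at a threshold of 0.01 and 9.7% to 35.8% with a library left out. The share with more H3K18La (13.2%) was 28%, 48.8% and 6.1% with medians centred, on reads in peaks and at 0.01, and 5.3% to 15.9% with a library left out. The ratio of 2.73 in the share of H3K27Ac reads was 1.15 over reads in peaks. The log2 ratio of 1.65 for H3K18La was 0.28 on reads in peaks, and 1.89 and 1.85 against library 2 or 3 when the others chose the members. Leaving out the 22 members with repeated words, an alternative chosen after seeing the data, gave 63.9% higher. The causes of these shifts were not tested.

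With the replicate number as a block, 5.3% of members passed as higher in H3K27Ac, below the 10.9% of all tested peaks, whereas without the block the members' share was above it. As carrying more H3K27Ac or H3K18La 40.8% and 15.8% of members passed, against 27.5% and 3.41% of all tested peaks. Deviations of same-numbered libraries correlated over peaks at 0.021 for H3K27Ac between glucose levels, and at 0.192 (replicate 1) and 0.0714 (replicate 2) between the marks at 25 mM. Not every pair passed 0.1 and no label ties the numbers to a shared source, so they were not taken as pairs. In the choosing libraries the median member held 8.0 to 25.0 reads, which limits the order of the ranks near 1000.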
